A study of Mus musculus with 8 samples.

Results

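The cytosolic ribosomal protein genes were taken as every non-control probe whose gene name in the scanner files is Rpl, Rps or Rplp followed by a number and at most a short letter suffix, which leaves out named pseudogenes and the Rps6k kinases. The rule found 81 genes among 34844 gene names, 51 of the large and 30 of the small ribosomal subunit, with 181 of the 55681 probes on the array. The material was bone marrow-derived macrophages, which are macrophages grown from marrow progenitors in culture, from male C57BL/6J mice. Cells of 4 mice were transfected with siRNAs directed at the terminal loop of Y RNAs (small noncoding RNAs, symbol RNY, bound by the Ro60 protein). Cells of the same 4 mice received a control siRNA, with 1 Cy3 array per mouse and condition. The series asks which genes respond to the small RNAs cut from Y RNAs. The sources used here do not give the siRNA sequences, the dose, the time or the age of the mice, and the level of the Y RNAs themselves was not analysed here, so the knockdown was not checked.

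A eukaryotic ribosome joins a small subunit, which reads the mRNA, to a large subunit, which forms the peptide bond, and each carries its own set of ribosomal proteins. Most of the mRNAs for these proteins start with a C followed by a run of pyrimidines, the terminal oligopyrimidine (TOP) tract, through which mTOR and the protein LARP1 control their translation. The mRNAs are long-lived and abundant in macrophages, and several of them serve as reference genes in RT-PCR.

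RefSeq promoter entries (build GRCm38.p6, 250 bases before and 50 after the annotated start) were matched for 61 of the 81 genes. In 13 of these, or 21.3%, the annotated first base was a C followed by at least 4 pyrimidines, against 813 of 27025 symbols, or 3.01%, in the whole table. Most matched members thus did not meet this rule at the annotated start. These windows are shown because the tract is the element named above, and each runs from 10 bases before the annotated start to 20 bases from it, with the pyrimidine run from the start in capitals. They come from the members with the longest tracts and from Rps6, Rps18, Rps21 and Rps27, which are described below.
Rpl15, chr14:18270967-18270996, minus strand: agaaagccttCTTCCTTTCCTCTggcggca
Rpl35, chr2:39005112-39005141, minus strand: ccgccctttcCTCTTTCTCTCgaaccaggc
Rps10, chr17:27635225-27635254, minus strand: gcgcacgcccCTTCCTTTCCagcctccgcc
Rps18, chr17:33955646-33955675, minus strand: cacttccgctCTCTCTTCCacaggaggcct
Rps6, chr4:86857348-86857377, minus strand: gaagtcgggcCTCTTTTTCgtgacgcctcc
Rps27, chr3:90213629-90213658, minus strand: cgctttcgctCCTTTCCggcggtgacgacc
Rps21, chr2:180257369-180257398, plus strand: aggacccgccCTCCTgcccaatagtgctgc
The run was 13 bases long in Rpl15, 11 in Rpl35 and 5 in Rps21. Of motifs searched on both strands of the 300-base window, with overlaps between motifs allowed, CTTTCC stood in 52.5% of the members and 29.3% of all symbols. CCGGAAGT, a sequence bound by ETS factors such as GABP, stood in 18.0% of the members and 4.31% of all, and AAGATGGCG, a sequence bound by YY1, in 6.56% and 1.64%. A match describes letters in this window and shows no binding, and a start annotated a few bases off hides a tract.

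The probes are DNA 60-mers, and ribosomal protein genes have many intronless copies in the genome, so the position of each probe matters. Of 180 member probes with a position in the scanner files (mm9), 24 probes of 14 genes lay on another chromosome than the RefSeq gene of that name. All 4 Rps27 probes lay on chromosome 9 and the gene on chromosome 3, all 3 Rps29 probes on chromosome 2 and the gene on chromosome 12, and the 3 Rpl36 probes on chromosomes 11, 5 and X and the gene on chromosome 17. In all, 47 of the 181 probes shared a run of at least 30 bases with a probe under another gene name. Signal from a gene and from its copies cannot be told apart on these arrays. The Rpl13 and Rpl31 probes below are shown as examples of a probe on the gene's chromosome followed by a probe on another.
Rpl13, chr8:125627816-125628964, plus strand, placed across a gap: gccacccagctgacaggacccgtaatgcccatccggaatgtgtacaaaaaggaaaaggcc
Rpl13, chr4:52254267-52254326, plus strand: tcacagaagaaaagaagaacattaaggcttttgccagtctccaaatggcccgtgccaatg
Rpl31, chr1:39427800-39427861, plus strand: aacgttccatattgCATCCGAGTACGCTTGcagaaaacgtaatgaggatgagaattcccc
Rpl31, chr12:93129426-93129485, minus strand: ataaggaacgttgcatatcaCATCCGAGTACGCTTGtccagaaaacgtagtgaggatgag
The capitals mark the longest run the Rpl31 probes share, 16 bases. The Rpl13 probe on chromosome 8 spans 1149 bases of the genome with its 60 bases, as a probe across an intron does, and the one on chromosome 4 lies in 60 bases without a gap.

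Levels are given as log2 of the background-subtracted signal minus the 75th percentile of the array, so a level of 8 lies 8 doublings above that percentile. On the 8 arrays, which occupy the 8 positions of a slide, 48.7% to 50.7% of spots were well above background, and no spot was saturated. The macrophage markers stood well above background on 4 or more arrays (9 of 9 genes), with a summed linear level of 1380 to 1636 in Y RNA siRNA cultures and 1401 to 1637 in control siRNA cultures. Erythroid markers were well above background in 0 of 4 genes, B cell markers in 1 of 4, T and NK cell markers in 2 of 5, fibroblast markers in 4 of 5, neutrophil markers in 5 of 7 and dendritic cell markers in 1 of 4. The summed levels overlapped between the groups for every list, for example 4.52 to 6.02 in Y RNA siRNA and 4.12 to 6.27 in control siRNA cultures for neutrophil markers, and 1.07 to 2.91 in Y RNA siRNA and 0.792 to 2.67 in control siRNA cultures for fibroblast markers. In cultures measured in bulk, fewer cells of a type and less RNA per cell cannot be told apart. RNA integrity numbers were 10 on 7 arrays and 8 on control siRNA mouse 4.

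Of the 81 genes, 79 had a probe that stood well above background on 4 or more arrays, all 30 of the small subunit and 49 of the large. The others were Rpl3l, known as the heart and skeletal muscle paralogue of Rpl3, and Rpl10l, the testis paralogue of Rpl10. The probe of Rpl3l was well above background on 0 arrays, and those of Rpl10l on 0 and 1. Among the genes that passed, 65 had a level of 7 or more.

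No ribosomal protein gene passed the test between Y RNA siRNA and control siRNA cultures, and the measured differences were small for all but Rpl4. limma called 0 of 79 members at a Benjamini-Hochberg adjusted p under 0.05 over all genes, and 0 of 19172 genes on the whole array (0%). At an unadjusted p under 0.05, 0 members passed, and 654 of all genes (3.41%). With mouse as a fixed block 0 members and 0 of all genes (0%) were called, and with mouse as a random block 0 members and 11 of all genes (0.0574%). Of the members, 53 were higher and 26 lower in Y RNA siRNA cultures, and 52.2% of all genes were higher. The median log2 fold change, Y RNA siRNA over control siRNA, was 0.014 over members and 0.0045 over all genes. The median size of the change, whatever its sign, was 0.022 over members, 0.059 over all genes and 0.036 over the 526 other genes at a level of 7 or more.

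**Figure D1:**
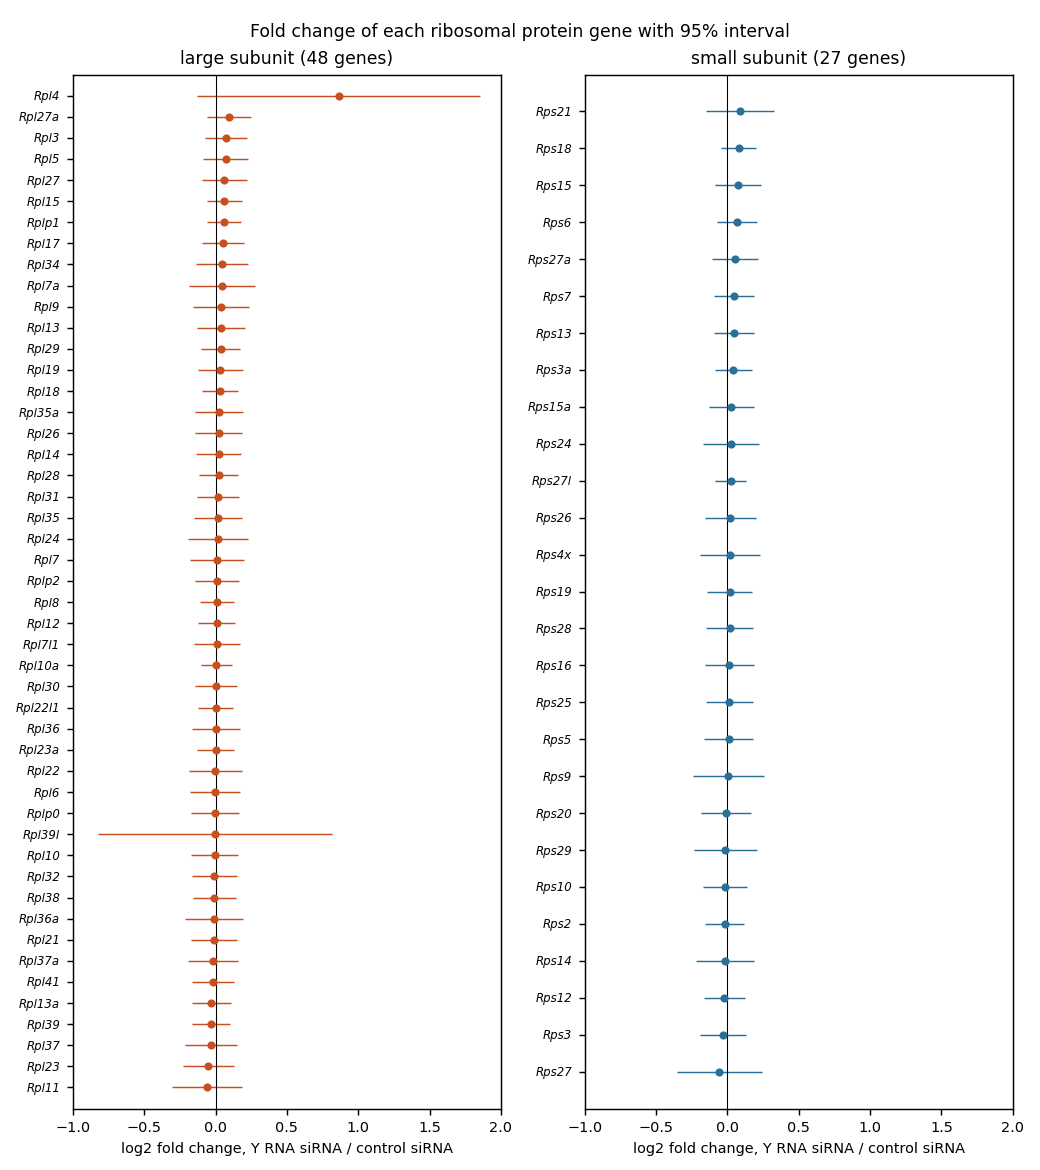
Log2 fold change (horizontal axis, Y RNA siRNA over control siRNA) of 75 tested genes (rows, sorted), with the 95% interval from limma as bars, for the large subunit (left) and the small subunit (right). Every interval includes 0, and all points except Rpl4 at 0.86 lie between -0.06 and 0.09.

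The arrays bounded these changes tightly. The 95% interval of the change lay within 1.2-fold in either direction for 73 of 79 members (92.4%), and for 44.0% of all genes. It lay within 1.5-fold for 77 members, the exceptions being Rpl4 and Rpl39l, and for 84.7% of all genes. The residual SD between arrays of a group was 0.090 at the median member, 0.139 over all genes and 0.092 over the other genes at a level of 7 or more. The groups overlapped for all 79 members, and for all but 2.43% of genes. Of the members, 13 were higher in the Y RNA siRNA culture of all 4 mice (10.5% of all genes) and 0 were lower in all 4 (8.86% of all genes), so 16.5% of members and 19.3% of all genes ran the same way in the 4 mice.

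The medians of the large and small subunits differed by less than the spread between mice. The median log2 fold change was 0.0096 over the 49 large subunit genes, of which 32 were higher and 17 lower, and 0.018 over the 30 small subunit genes, of which 21 were higher and 9 lower. The large subunit median minus the small subunit median was -0.0079, with an SD of 0.017 between mice. It was -0.0089, -0.011, -0.025 and 0.016 in mice 1 to 4. Per mouse, the median difference over all members was 0.059, 0.028, -0.0057 and -0.011 in mice 1 to 4, with 71, 59, 38 and 28 of the 79 members higher in the Y RNA siRNA culture. Mice 1 and 2 lay in the first row of the slide and mice 3 and 4 in the other, and the members' median was 0.040 within the first row and -0.0020 within the other. With the slide row as a block it was 0.014. Y RNA siRNA arrays stood in slide columns 1 and 3 and control siRNA arrays in columns 2 and 4, so column and condition cannot be told apart.

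Rpl4, a large subunit protein that reaches into the peptide exit tunnel, was the member with the largest difference. Its single probe read 5.91, 5.61, 5.66 and 5.59 in the Y RNA siRNA cultures of mice 1 to 4, against 4.09, 5.65, 3.89 and 5.70 in the control siRNA cultures. The control siRNA cultures of mice 1 and 3 were low, and those of mice 2 and 4 lay inside the range of the Y RNA siRNA cultures. The mean was 5.69 ± 0.15 in Y RNA siRNA and 4.83 ± 0.97 in control siRNA cultures (SD, n = 4 each), a log2 fold change of 0.86 ± 0.43 (SE) with a 95% interval of -0.13 to 1.85. limma gave an unadjusted p of 0.0796 and an adjusted p of 1.00, and the Y RNA siRNA culture was higher in 2 of 4 mice. With mouse as a random block the unadjusted p was 0.0454 and the adjusted p 0.509. Without the control siRNA array of mouse 1 the difference was 0.61, and without that of mouse 3 it was 0.55.

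The probe of Rpl4 lies at chr9:64026265-64026324 (mm9, plus strand) and holds the poly(A) signal AATAAA, in capitals in the stretch from its base 26 to its base 55.
Rpl4: acagcatatttcAATAAAtcaaacatgtgg
The low values were in the raw images as well. The mean spot signal was 35441, 35190, 37760 and 31856 units in the Y RNA siRNA cultures of mice 1 to 4 and 10256, 36477, 10675 and 35000 units in the control siRNA cultures, with local backgrounds of 33 to 42 units and no outlier flag. The 61 other spots within 5 rows and 5 columns that were well above background on every array showed no such dip. Their median difference from the other 6 arrays was -0.02 on control siRNA array 1 and 0.03 on control siRNA array 3, against -1.60 and -1.79 for Rpl4. Control siRNA arrays 1 and 3 both stand in slide column 4. Of 19134 genes, Rpl4 was the 1 gene with both these arrays more than 1 log2 unit below the lowest of the other 6, and 0 genes had both above the highest by as much. This search was made after the values of Rpl4 had been seen.

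**Figure D2:**
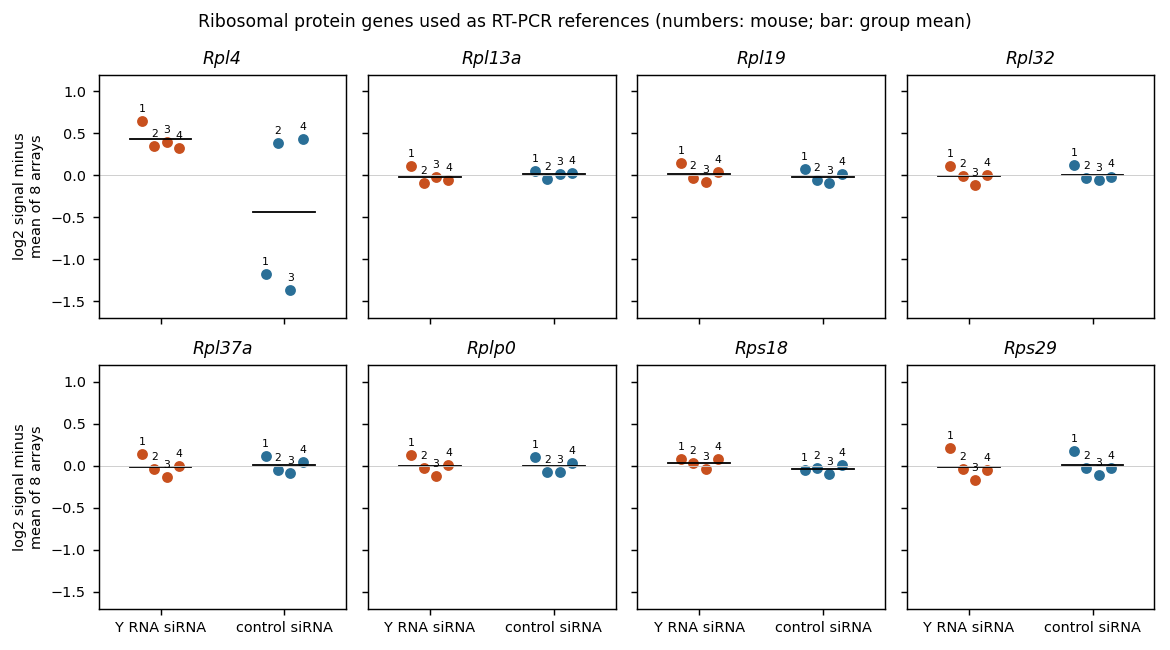
Log2 signal minus the mean of the 8 arrays (vertical axis) for 8 ribosomal protein genes in common use as RT-PCR references, in Y RNA siRNA cultures (orange) and control siRNA cultures (blue). Points are arrays numbered by mouse and bars are group means, and Rpl4 is the gene with 2 control siRNA arrays more than 1 unit below the rest.

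The other reference genes in common use differed little between the conditions. Rplp0, the stalk base protein, read 8.99, 8.85, 8.74 and 8.88 in Y RNA siRNA cultures and 8.98, 8.80, 8.79 and 8.91 in control siRNA cultures. Rpl13a, which is also known for a role outside the ribosome in silencing inflammatory mRNAs, read 7.14, 6.93, 7.00 and 6.96 in Y RNA siRNA and 7.08, 6.98, 7.04 and 7.05 in control siRNA cultures. Rps18 read 7.50, 7.46, 7.38 and 7.51 in Y RNA siRNA and 7.37, 7.41, 7.32 and 7.44 in control siRNA cultures. On this Rps18 probe each mouse was higher with the Y RNA siRNA, by 0.08 ± 0.05 (SE) in log2, while the groups overlapped. limma gave it an unadjusted p of 0.169 and an adjusted p of 1.00. The other kept probe of Rps18 gave a log2 fold change of 0.01. The log2 fold changes of Rpl19, Rpl32, Rpl37a and Rps29 were 0.03, -0.01, -0.02 and -0.01, with 95% intervals no wider than -0.24 to 0.21.

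In the large subunit, the genes most shifted toward the Y RNA siRNA cultures after Rpl4 were Rpl27a, Rpl3 and Rpl5, and none passed the test. Rpl27a read 8.07, 8.00, 7.88 and 8.01 in Y RNA siRNA and 7.94, 7.88, 7.78 and 7.99 in control siRNA cultures, higher in 4 of 4 mice and overlapping between the groups, with a log2 fold change of 0.09 ± 0.07 (SE). limma gave it an unadjusted p of 0.210 and an adjusted p of 1.00. The 3 kept probes of Rpl27a gave log2 fold changes of 0.02 to 0.09. Rpl3, which lies at the peptidyl transferase centre, averaged 8.00 ± 0.09 in Y RNA siRNA and 7.92 ± 0.06 in control siRNA cultures (SD, n = 4 each). Its unadjusted limma p was 0.274 and its adjusted p 1.00. Of its 2 kept probes, the brightest, used here, lies on chromosome 5 while the gene lies on chromosome 15. The other Rpl3 probe, at a level of 7.86, gave a log2 fold change of 0.04. At the other end stood Rpl11, Rpl23, Rpl37 and Rpl39, with log2 fold changes of -0.06, -0.05, -0.03 and -0.03 and standard errors of 0.11, 0.08, 0.08 and 0.06.

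Rpl5 and Rpl11 leave the assembling large subunit together with a ribosomal RNA and bind the p53 regulator Mdm2 when assembly stalls, and Rpl23 and Rpl26 act in the same circuit. Rpl5 averaged 6.15 ± 0.08 in Y RNA siRNA and 6.08 ± 0.10 in control siRNA cultures (SD, n = 4 each). Rpl11 read 9.09, 8.99, 8.79 and 8.94 in Y RNA siRNA and 9.03, 8.91, 8.84 and 9.27 in control siRNA cultures. The control siRNA array of mouse 4, the one with the lower RNA integrity number, held the highest value of this Rpl11 probe. The other Rpl11 probes did not share this. They read 7.34 and 6.48 on that array, against 7.52 and 6.76 on the Y RNA siRNA array of mouse 1. Their log2 fold changes were 0.026 and -0.0080. Rpl26 averaged 7.69 ± 0.10 in Y RNA siRNA and 7.67 ± 0.09 in control siRNA cultures. The stalk proteins, which recruit the translation factors, had log2 fold changes of -0.0040 for Rplp0, 0.06 for Rplp1 and 0.01 for Rplp2, with 95% intervals of -0.17 to 0.16, -0.06 to 0.18 and -0.14 to 0.16.

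In the small subunit, Rps21, Rps18 and Rps15 were among the most shifted toward the Y RNA siRNA cultures, by 0.09, 0.08 and 0.07 in log2. Rps21 read 4.30, 4.01, 3.89 and 3.93 in Y RNA siRNA and 4.10, 3.93, 3.86 and 3.88 in control siRNA cultures, with both arrays of mouse 1 above the other 6. Rps27, Rps3 and Rps12 had log2 fold changes of -0.06, -0.03 and -0.02, and none of the 6 genes passed the test. Rps3 is also known as a partner of NF-kB in the nucleus, and it averaged 6.49 ± 0.10 in Y RNA siRNA and 6.52 ± 0.08 in control siRNA cultures (SD, n = 4 each). Rps6, whose protein is the substrate of the S6 kinases downstream of mTOR, averaged 7.99 ± 0.05 in Y RNA siRNA and 7.92 ± 0.09 in control siRNA cultures. Its log2 fold change was 0.07 with a 95% interval of -0.07 to 0.21, and its 3 probes gave 0.06 to 0.10. Rps19 and Rps26, mutated in human Diamond-Blackfan anaemia, each had a log2 fold change of 0.02.

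Some members are paralogues of another member, with a sequence close to it, and 4 of these passed the filter, Rpl7l1, Rpl22l1, Rpl39l and Rps27l. Rps27l, known in human cells as a p53 target, read 6.51, 6.44, 6.46 and 6.43 in Y RNA siRNA and 6.40, 6.46, 6.44 and 6.47 in control siRNA cultures, and it had the smallest residual SD of all members, 0.034. Its partner Rps27 had a log2 fold change of -0.06 ± 0.13 (SE). Rpl22l1 and Rpl22, a protein known to hold the Rpl22l1 mRNA down, had log2 fold changes of 0.0013 and -0.0011. Rpl7l1, the paralogue of Rpl7, averaged 0.11 ± 0.09 in Y RNA siRNA and 0.11 ± 0.10 in control siRNA cultures, and Rpl7 had a log2 fold change of 0.01. Rpl10 and Rps4x, partners of paralogues without a tested probe here, had -0.0064 and 0.02.

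More members reached a small p between mice than between conditions. Both arrays of a mouse lay side by side on the slide. Mouse and slide position therefore cannot be told apart, here or in the comparisons of mice below. With the condition in the model, limma's F test on mouse called 1 of 79 members at an adjusted p under 0.05, against 901 of 19172 genes (4.7%), and at an unadjusted p under 0.05 it took 37 members against 29.8% of all genes. The member called was Rpl39l, a paralogue of Rpl39 known from the male germ line. It read -2.06, -2.59, -1.59 and -2.92 in Y RNA siRNA cultures of mice 1 to 4, against -2.23, -2.76, -1.51 and -2.65 in control siRNA cultures. Both cultures of mouse 3 were the highest and both of mice 2 and 4 the lowest, the mouse means spanned 1.23 log2 units, and the adjusted p of the F test was 0.0325. Its log2 fold change between conditions was -0.0048 ± 0.36 (SE). The call did not hold when any 1 array was left out. Rpl39 itself read 7.42, 7.25, 7.25 and 7.28 in Y RNA siRNA and 7.37, 7.34, 7.29 and 7.31 in control siRNA cultures.

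After Rpl39l the smallest p-values between mice belonged to Rps27, Rpl24, Rps29, Rpl7a and Rps21, with adjusted p from limma's F test of 0.0710, 0.0794, 0.0799, 0.0803 and 0.103. Rps27 read 8.59, 8.24, 8.09 and 8.33 in Y RNA siRNA and 8.56, 8.24, 8.17 and 8.49 in control siRNA cultures, highest in mouse 1 and lowest in mouse 3 under both conditions. Rpl7a read 7.07, 6.78, 6.68 and 6.79 in Y RNA siRNA and 6.95, 6.75, 6.65 and 6.78 in control siRNA cultures, with the same order at the ends. This was the usual pattern. On the scale used, 66 of 79 members had their highest mean in mouse 1 (36.3% of all genes) and 69 had their lowest in mouse 3 (32.9% of all genes). With group means removed, the median Pearson correlation over the 8 arrays between pairs of members was 0.84, and 93.3% of the 3081 pairs were positive. It was 0.83 within the large subunit, 0.85 within the small and 0.84 between them. These correlations describe 8 arrays that share 4 mice and the scaling of each array.

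**Figure D3:**
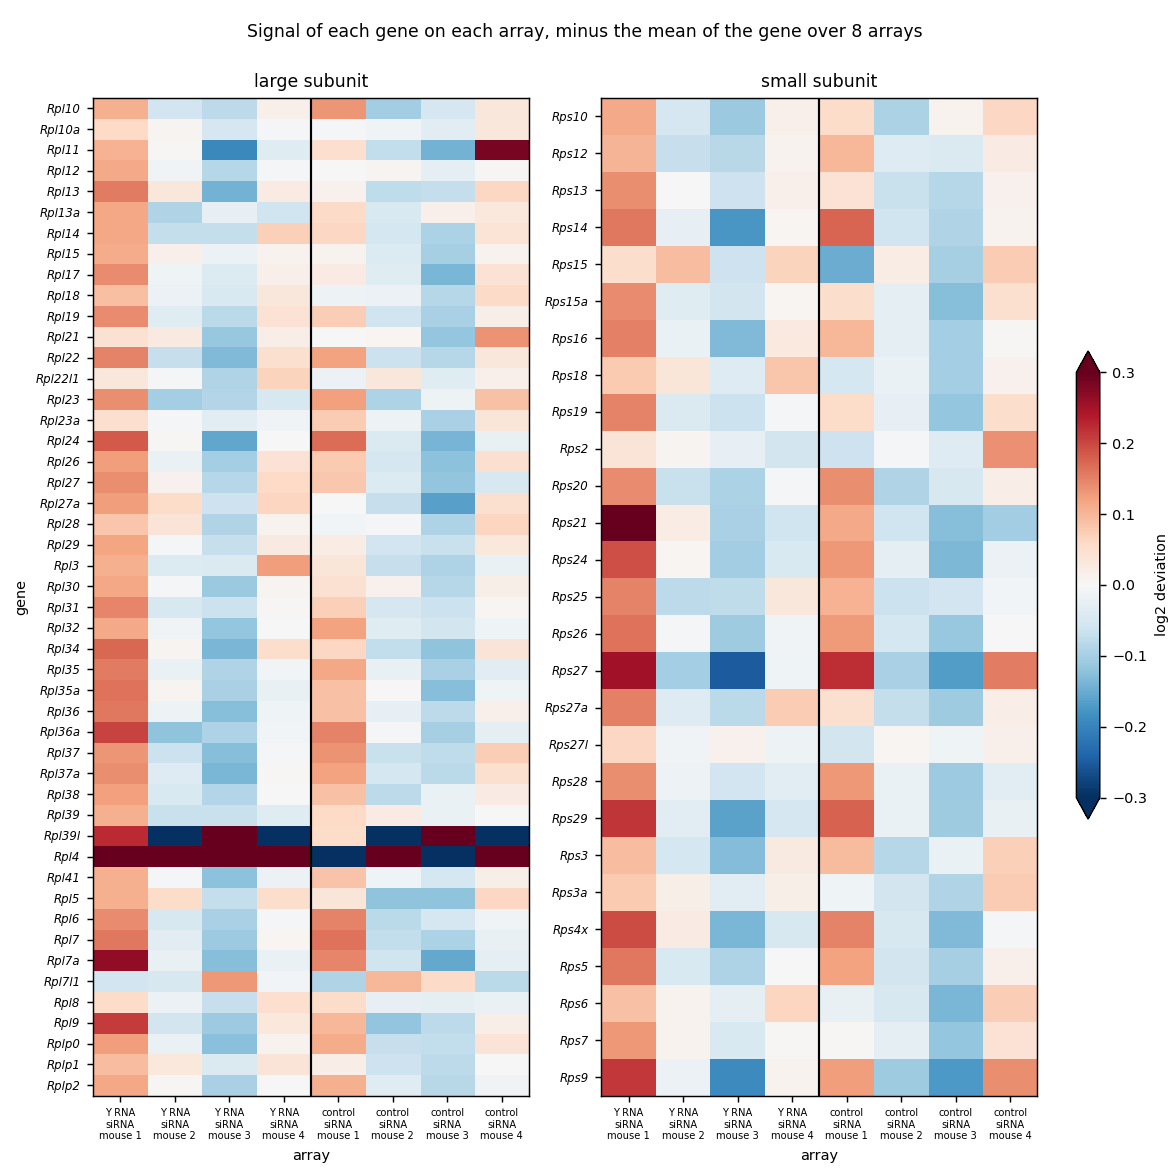
Log2 signal of 75 tested genes (rows) on each array (columns, Y RNA siRNA mice 1 to 4, then control siRNA mice 1 to 4) minus the mean of the gene over 8 arrays, with colours held at -0.3 and 0.3. Both arrays of mouse 1 are warm and both of mouse 3 cool for most members, while Rpl39l, Rpl4 and Rpl7l1 run otherwise.

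The members that departed from the common pattern were few. Against the median of the other members, 65 of 79 genes had a correlation above 0.8 over the 8 arrays and 2 were below 0, Rpl7l1 at -0.81 and Rpl39l at -0.31. The next lowest were Rpl4 at 0.12, Rps15 at 0.17, Rps27l at 0.21, Rps2 at 0.28 and Rpl22l1 at 0.53. All 4 paralogues are among these 7 genes.

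Both the size and the direction of the mouse pattern depended on the scaling. The median over members of mouse 1 minus mouse 3 was 0.19 after scaling to the 75th percentile, with 77 genes higher in mouse 1. In the deposited values it was 0.025, with 45 genes higher, and in signals without scaling it was -0.075, with 10 genes higher. The 526 other genes at a level of 7 or more gave 0.15, 0.0076 and -0.11 in the same order of scalings. Mouse 1 had the lowest 75th percentiles, 9.04 on both arrays, and the other arrays lay between 9.19 and 9.34.

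**Figure D4:**
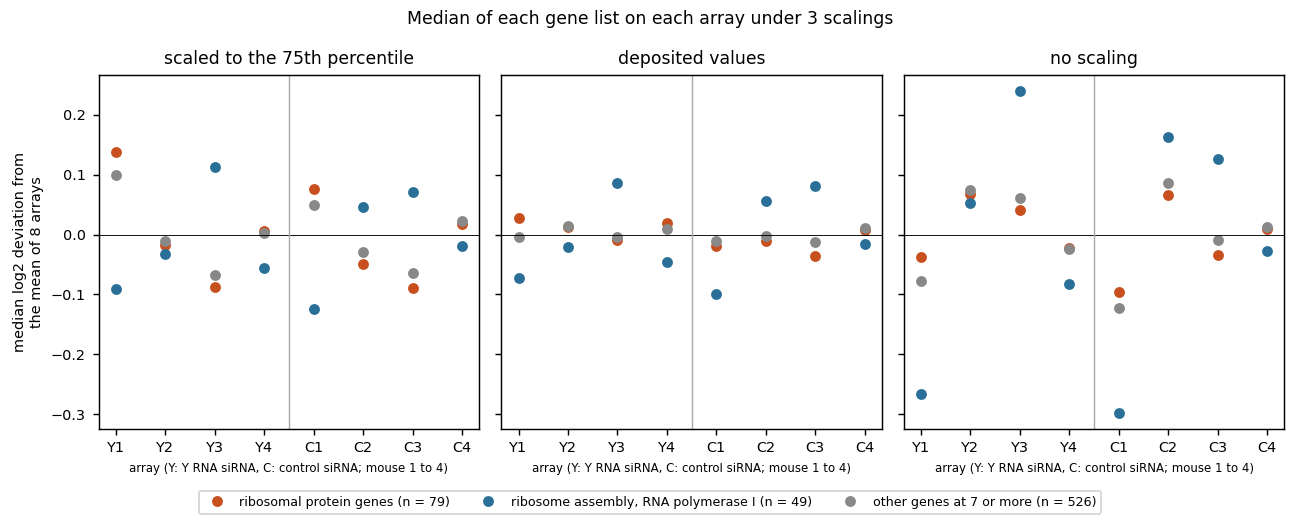
Median log2 deviation from the mean of 8 arrays (vertical axis) of 3 gene lists on each array (horizontal axis, Y for Y RNA siRNA and C for control siRNA, mice 1 to 4) under 3 scalings (panels). Ribosomal protein genes lie close to the other bright genes in each panel, and genes of ribosome assembly lie below them in mouse 1 and above them in mouse 3 in each panel.

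Ribosome assembly genes were lower in mouse 1 than in mouse 3 under each scaling. Over 49 tested genes of nucleolar assembly factors and RNA polymerase I, which makes the ribosomal RNA precursor, the median of mouse 1 minus mouse 3 was -0.19 after percentile scaling, -0.15 in the deposited values and -0.45 without scaling. It was lower in mouse 1 in 40, 40 and 48 of the 49. The 12167 other genes under a level of 2 gave medians of 0.028, 0.019 and -0.24 in the same order of scalings, with 5598, 5692 and 9564 lower in mouse 1. Myc, a transcription factor that drives ribosome assembly genes, read -1.47, -0.58, -0.09 and -0.64 in Y RNA siRNA cultures of mice 1 to 4, against -1.41, -0.31, -0.03 and -0.94 in control siRNA cultures. Both cultures of mouse 1 were the lowest and both of mouse 3 the highest, with an adjusted p of 0.0369 in limma's F test between mice. Rpl7l1 read 0.05, 0.06, 0.24 and 0.10 in Y RNA siRNA and 0.02, 0.21, 0.17 and 0.03 in control siRNA cultures, with an adjusted p between mice of 0.386. The 73 mitochondrial ribosomal protein genes also had a lower median in mouse 1 than in mouse 3, by -0.13 after percentile scaling and -0.11 in the deposited values. Assembly genes have a lower typical signal than the members, at a median level of 1.62. The part of the array signal in these differences was not tested.

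Some cell type markers also differed between mouse 1 and mouse 3. After percentile scaling, both arrays of mouse 1 lay below both arrays of mouse 3 for 4 of the 5 neutrophil markers well above background on at least 4 arrays (S100a8, S100a9, Mpo and Elane) and for 4 of 4 such fibroblast markers (Col1a1, Col1a2, Col3a1 and Dcn), the direction of the assembly genes and Myc. Mpo, an enzyme of myeloid progenitors and neutrophil granules, read -4.74, -3.18, -2.24 and -2.58 in Y RNA siRNA cultures of mice 1 to 4, against -4.47, -3.12, -2.30 and -2.94 in control siRNA cultures. The summed linear level of the 7 neutrophil markers was 4.52 in the Y RNA siRNA and 4.12 in the control siRNA culture of mouse 1, and, in the same order, 6.02 and 6.27 in mouse 3. That of the 5 fibroblast markers was 1.07 with Y RNA siRNA and 0.792 with control siRNA in mouse 1, and 1.96 and 2.67 in mouse 3. Camp, the neutrophil marker that did not follow, read -3.16 with Y RNA siRNA and -3.12 with control siRNA in mouse 1. In mouse 3 it read -3.08 and -3.21 in the same order. Ly6g, Ngp and Pdgfra were not well above background on any array, and Ngp read -4.52 in the Y RNA siRNA culture of mouse 4. Mpo and Col3a1 were well above background on 6 arrays each and read lowest on the arrays of mouse 1. Col3a1 read -4.30 with Y RNA siRNA and -5.25 with control siRNA there. These values lie near those of undetected probes, so the size of both genes' differences is uncertain. The other genes named as lower in mouse 1 were well above background on every array. Of the 9 macrophage markers, 6 were higher on both arrays of mouse 1 than on both of mouse 3 and 0 were lower, the direction of most ribosomal protein genes on this scale, with sums of 1636 and 1637 in mouse 1 and 1380 and 1401 in mouse 3. Among T and NK cell, B cell and dendritic cell markers, 1 of 2, 1 of 1 and 0 of 1 genes were higher in mouse 1 by this count and 0 were lower, and 0 of 4 erythroid markers passed the background rule. The share of all genes that meet this both-array rule was not counted. By mouse means after percentile scaling, 5598 of 12167 other genes under a level of 2 were lower in mouse 1 than in mouse 3. Of the 526 other genes at a level of 7 or more, 411 were higher in mouse 1. The part of the cell makeup in the differences between mice was not tested.

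The rest of the pathway showed no calls between the conditions either, in the fit without a mouse block. In that fit limma called 0 genes at an adjusted p under 0.05 in each of 5 lists chosen for their known roles. Calls in these lists with mouse as a block are not given here. The 5 ribosomal proteins outside the name rule, among them Rpsa, Fau, Gnb2l1 and Rpl36al, had log2 fold changes of -0.02 to 0.04, with 3 higher and 2 lower. Other TOP mRNAs had 17 higher and 4 lower with a median of 0.033, assembly and RNA polymerase I genes 21 and 28 with -0.012, regulators of ribosomal protein mRNAs 9 and 12 with -0.020, and mitochondrial ribosomal proteins 46 and 27 with 0.018. At an unadjusted p under 0.05, the numbers were 0, 1, 0, 1 and 0 in the order given, against 3.41% of all genes. The groups did not overlap for 2.43% of all genes. The TOP mRNA was Hnrnpa1, an RNA-binding protein, which read 3.02, 3.06, 3.06 and 3.05 in Y RNA siRNA and 2.63, 2.88, 2.85 and 2.66 in control siRNA cultures, without overlap, at an unadjusted limma p of 0.00282 and an adjusted p of 0.868. The regulator was Eif4ebp2, a repressor of cap-dependent translation that mTOR phosphorylates. It read 3.32, 3.15, 2.90 and 3.05 in Y RNA siRNA and 3.74, 3.55, 3.45 and 3.65 in control siRNA cultures, without overlap and lower in 4 of 4 mice, by -0.49 ± 0.10 (SE) in log2. Its unadjusted limma p was 0.00141 and its adjusted p 0.793.

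The probes of a gene differed far more in signal than in fold change. Among the 54 genes with at least 2 kept probes (152 probes), the range of the mean level between probes of a gene was 1.61 at the median and 13.2 at most, and the range of the log2 fold change was 0.047 at the median and 0.20 at most. Probes respond with unequal efficiency and can sit in different exons or copies, so the range of levels is not a range of abundance. Rps27a, Rps15a, Rpl6 and Rps25 were among the genes with the widest ranges of level. The brightest and dimmest Rps27a probes had levels of 8.80 and -4.40 and log2 fold changes of 0.06 and 0.08. For Rps15a the levels were 7.44 and -4.18 with 0.03 and 0.04, and for Rpl6 7.99 and -3.31 with -0.0031 and 0.03.

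**Figure D5:**
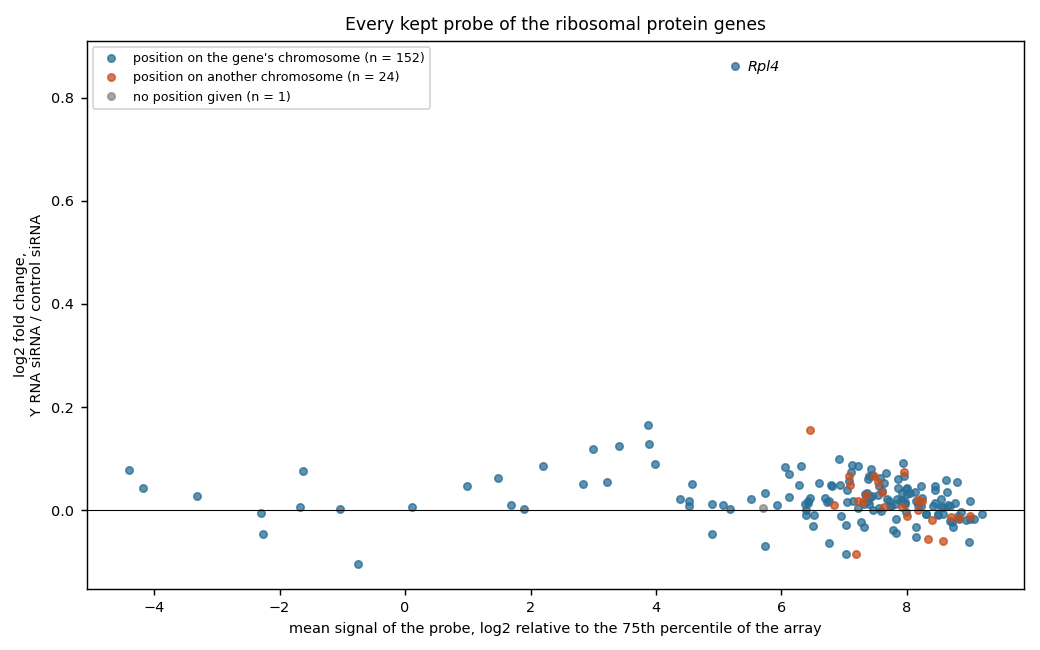
Log2 fold change (vertical axis, Y RNA siRNA over control siRNA) against mean level (horizontal axis, log2 after scaling to the 75th percentile) for the 177 kept probes, coloured by whether the probe lies on the chromosome of its gene. Points other than Rpl4 run from -0.10 to 0.16, and the 24 probes on another chromosome lie among the others.

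In the fit over probes, limma called 0 of 177 member probes and 0 of 26820 probes at an adjusted p under 0.05 (0%), and 1 member probe and 892 probes (3.33%) at an unadjusted p under 0.05. That probe belongs to Rpl13 and lies on chromosome 4, and its log2 fold change was 0.16 ± 0.06 (SE), with an unadjusted p of 0.0418 and an adjusted p of 1.00. The other Rpl13 probes gave 0.04, 0.07 and 0.0021, so the gene spans 0.15. The widest spans of log2 fold change were in Rps24, from -0.07 to 0.13 over 4 probes, Rpl7, from -0.08 to 0.09 over 4, and Rpl17, from 0.0041 to 0.16 over 7, then Rpl13 and Rps27a. In 18 of the 54 genes the probes differed in sign. Of the kept probes, 24 on another chromosome had a median log2 fold change of 0.013 and 152 on the gene's chromosome 0.018.

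The mouse pattern weakened in dim probes. Mouse 1 minus mouse 3 was 0.19 at the median of 116 member probes at a level of 7 or more, 0.17 for 33 probes between 5 and 7, 0.14 for 14 between 2 and 5 and -0.02 for 14 under 2, all after percentile scaling. It was above 0 in 116, 33, 12 and 6 of them. These classes hold different genes, and the class under 2 includes the only probes of Rpl39l and Rpl7l1. Within genes, the 25 dimmer probes under a level of 5 had a median of 0.058, and the brightest probes of the same 22 genes 0.18. Of these 25 probes, 17 lay below the brightest probe of their gene. For scale, a probe of Rpl23 printed 10 times on each array had an SD between its spots of 0.083 to 0.12 within an array.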

How the data were processed

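Total RNA was measured on 8 Agilent 1-colour arrays. Per the file headers, the authors scanned them with Agilent Feature Extraction 10.7.3.1 (protocol GE1_107_Sep09), and the processed intensity is background-subtracted and detrended within the array. The deposited value table holds log2 values of unstated scaling and served as an alternative only.

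Spots of a probe were averaged without outlier flags, log2 values were scaled to the 75th percentile, probes that 4 or more of 8 arrays held well above background were kept, and the brightest probe stood for a gene. limma 3.58.1 in R 4.3.3 (lmFit, eBayes) tested all 19172 genes, 2-sided, with Benjamini-Hochberg adjustment over all. The step was tested on simulated data. The number of arrays limits the precision. The labels give 4 mice under both conditions, and the replicate numbers were taken as the mice. Deviations of same-numbered arrays correlated at 0.62, 0.15, 0.58 and 0.29. These arrays were also neighbours on the slide, so the correlations cannot show that the numbers pair the samples by mouse. Of member probes, 167 matched a RefSeq accession of the same gene and 14 had none in the table.

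Members and lists were chosen with earlier results of these data known. Named genes were the largest shifts in each subunit, the smallest p-values, the widest probe ranges, paralogues, and set roles, of which some are not reported here. Alternatives covered background correction, scaling, filters, probes, blocks, weights and each array or mouse left out.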

Additional observations from a re-analysis of the deposited data

How the results depend on the processing

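Under 22 other settings, 0 members were called between the conditions in each. The setting that averaged the probes of a gene has no fit over probes, and under the others 0 member probes were called. Of all genes, 11 were called with mouse as a random replicate block and 0 under the others, and with the block the genes at an unadjusted p under 0.05 numbered 1827 (random) and 1787 (fixed), against 654 without it. The members' median log2 fold change was 0.014 with either block, since pairing leaves it in place. It lay between 0.0051 and 0.044 under the other settings that kept all arrays, and at -0.029 to 0.045 when 1 array or 1 mouse was left out. The same range was -0.027 to 0.043 for the large subunit and -0.032 to 0.053 for the small subunit. The lowest values came without the Y RNA siRNA array of mouse 1, where 20 of 79 members were higher, and the highest for all members and the large subunit without that of mouse 3, where 72 were. Without the control siRNA array of mouse 3, 30 were higher. Median centring gave 73 higher with the median of all genes at 0.034, against 0.0045 in percentile scaling. Slide row as a block, chosen after seeing the data, gave 0 calls. Between mice, the count of members called was 1, 3 with normexp, 0 without the filter and 0 to 0 with an array left out. Over all genes it was 901, 3294 with normexp, 1859 in the deposited values, 176 without the filter and 82 to 555 with an array left out. The Rpl4 difference was 0.62 with array weights and 0.54 to 1.19 with an array or mouse left out, and its unadjusted p ran from 0.0255 to 0.308 over all alternatives, with adjusted p of 0.509 or more.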
